A study of Rattus norvegicus with 12 samples.

Results

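The genes described here are 103 of 12508 named genes on a rat array, chosen by the ratio of prostate messenger RNA signal to that of sham/vehicle RNA on the same array. This ratio was at least 1 log2 unit, or 2-fold, higher than in sham-operated rats given vehicle in 2 separate settings: after partial obstruction of the bladder outlet, and after the drug Eviprostat alone in sham-operated rats. A gene was taken when, on its brightest probe, the mean log2 ratio of Cy5 to Cy3 of both groups stood at least 1 above that of the sham/vehicle arrays and Cy5 was well above background on all 6 arrays of those groups. Names starting with Svs, Semg, Spink, Scgb, Wfdc, Serpin or Col were left out. Of the named genes, 10319 met these conditions on signal and name and could have qualified. With the same filters, 882 genes met the threshold for obstruction only and 79 for Eviprostat only. These values chose the genes, so the rise in both groups is a description. Counts of calls on it are given further on, and nothing is read from them. The obstruction/Eviprostat arrays had no part in the thresholds. They entered only the mean signal over all 12 arrays that picked the brightest probe of a name.

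The study used prostates of 10-week-old male rats on 12 arrays of 2 colours, with 3 arrays in each of 4 groups of 5 to 6 rats. Sham-operated rats received vehicle (0.1% Tween 80) or 18 mg/kg Eviprostat, a preparation of plant extracts used for benign prostatic hyperplasia, in doses that came to 36 mg/kg daily. Rats with a rubber ring tied around the urethra close to the bladder, which partly obstructs the outlet, received the same vehicle or the same dose for 5 days. The prostates were taken 2 h after the last dose. Dosing began 5 days after the sham operation but on the day after the obstruction, so operation and time since surgery cannot be told apart. The labels call the 3 arrays of a group biological replicates, while their protocol describes RNA from pooled prostate tissue; where tissue was pooled, p-values measure the spread between arrays, not between animals. Cy5 carried the RNA of the group and Cy3 carried sham/vehicle RNA on every array, with no dye swap.

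The rat prostate is a set of lobes whose epithelium secretes proteases, protease inhibitors and binding proteins into seminal fluid, and the seminal vesicles and coagulating glands lie against it. Tissue kallikreins are serine proteases encoded by a cluster of closely related genes, several of which are made in male accessory glands and salivary glands. The prostate is supplied by noradrenergic and cholinergic nerves from the pelvic ganglia, which in the rat lie beside the gland. The neurons of these ganglia make neuropeptide Y, vasoactive intestinal peptide and the intermediate filament peripherin.

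Cy5 signal cleared the background test on 71.0% to 88.4% of the spots of an array, and 3 arrays a group set the precision. Of the 103 genes, 73 were well above background in Cy5 on all 3 sham/vehicle arrays and 5 on none of them (Cdo1, Pou3f3, Plppr4, Scn9a and Dync1i1). Cy5 was saturated for 1 gene, Svs4, and on the obstruction/Eviprostat arrays 5 genes had no array well above background (Cdo1, Pou3f3, Slc23a1, Tbx18 and Adipoq). Because this is bulk tissue, fewer cells of a type and less RNA per cell cannot be told apart. The genes were sorted by known function into 9 sets after the members were known, which serve to order the account and carry no test: 16 secreted gland proteins, 33 neuronal genes, 6 of striated muscle and chaperones, 5 adipocyte and lipid genes, 7 of matrix and growth factors, 7 channels and transporters, 7 enzymes, 3 olfactory receptors and 19 others.

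By the choice of the genes, the log ratio after obstruction stood above that of sham/vehicle, by a median of 2.71 log2 units (range 1.07 to 5.74), and so did that under Eviprostat in sham rats, by a median of 1.44 (range 1.01 to 5.01). The difference was larger after obstruction for 93 of 103 genes, larger under Eviprostat for 10, and within 0.5 of each other for 28. The 3 obstruction/vehicle arrays all stood above the 3 sham/Eviprostat arrays for 70 genes and below them for 1, against 23.7% and 31.3% of named genes. Just inside the threshold, judged by the smaller of both differences, were Bag3, a co-chaperone (1.01 under Eviprostat), Ppp1r17, a phosphatase inhibitor (1.02 under Eviprostat and 2.64 after obstruction), and Areg, the growth factor amphiregulin (1.04 and 2.27). Just outside were Tle4 with 0.99 under Eviprostat, Olfm1 with 0.99 and Or1f28 with 0.98.

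**Figure D1:**
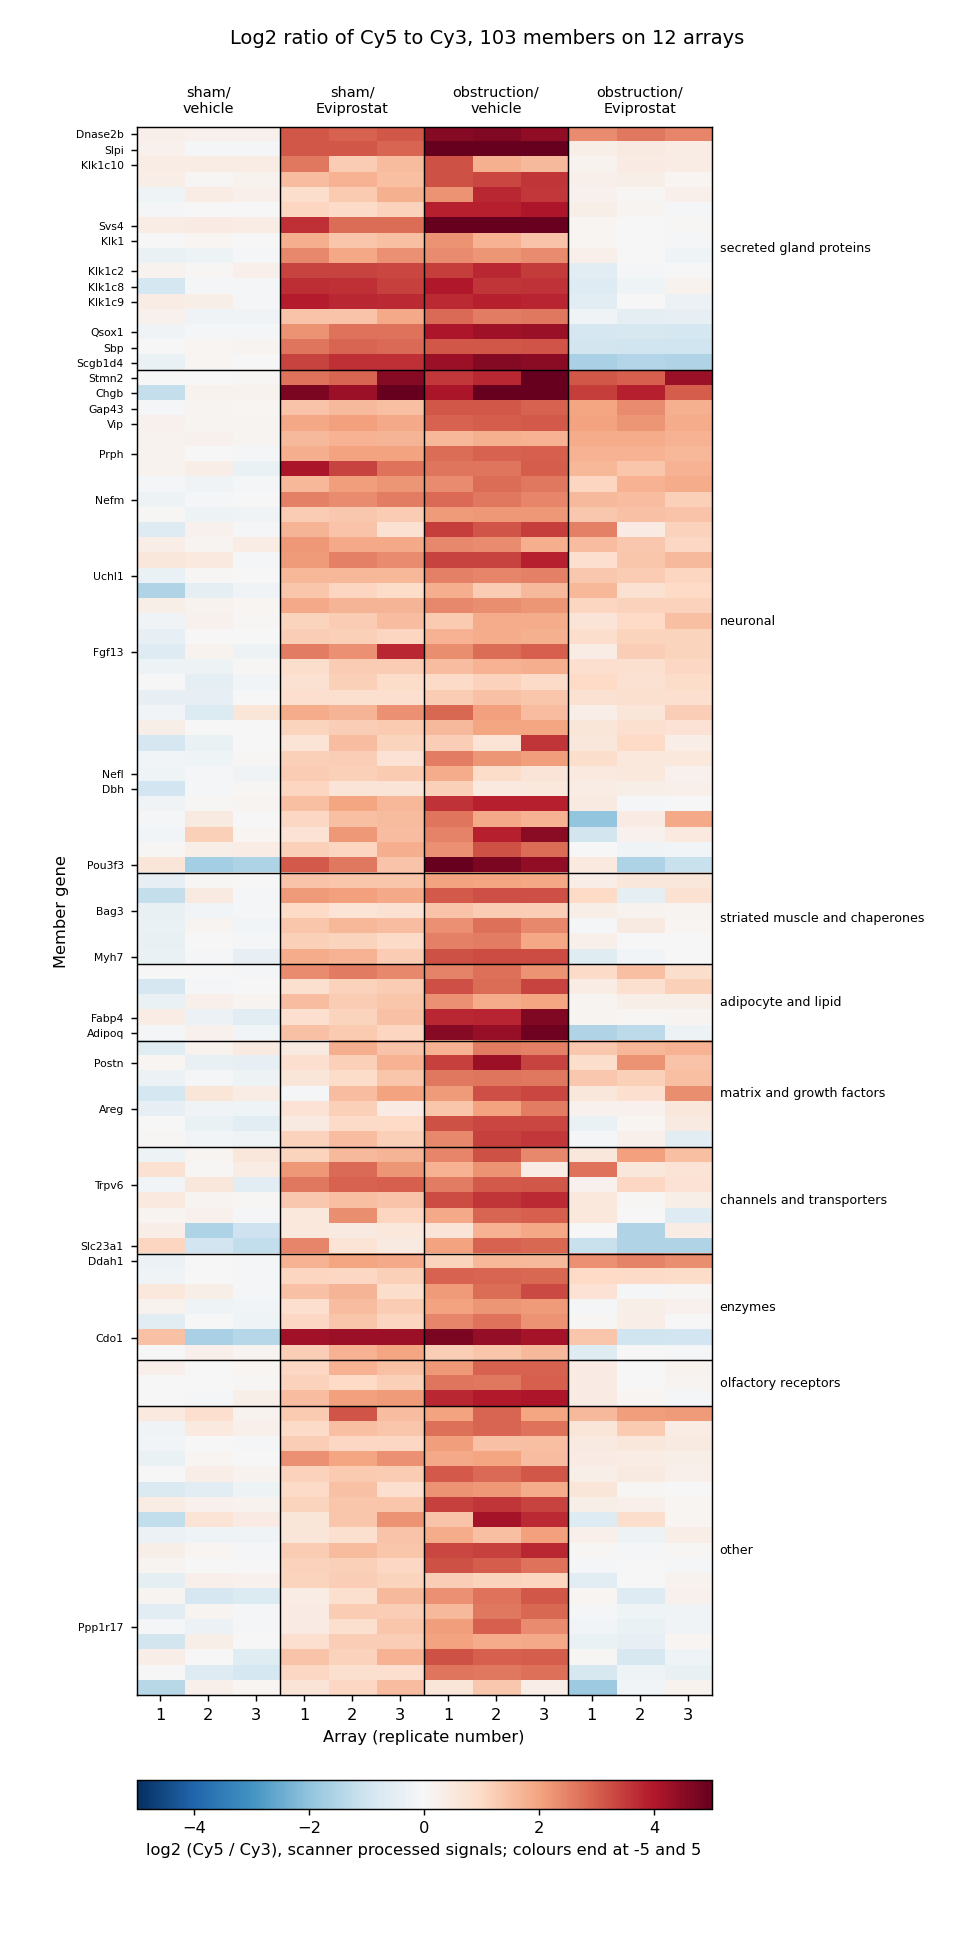
Log2 ratio of Cy5 to Cy3 from the scanner's processed signals for the 103 genes (rows, ordered by function and by the obstruction/Eviprostat mean, with the names of those nearest the extremes, the threshold or a marker list) on the 12 arrays (columns). The sham/Eviprostat and obstruction/vehicle columns are red because they chose the genes; in the obstruction/Eviprostat columns most of the secreted gland genes are pale or blue and most neuronal genes stay red.

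The rats that had both obstruction and Eviprostat divided the genes. On the obstruction/Eviprostat arrays the mean log ratio was at least 1 for 28 of 103 genes, between 0.5 and 1 for 12, within 0.5 of 0 for 56 and -0.5 or lower for 7. Of the 28 genes at 1 or more, 18 were neuronal, and 4 of the other 10 were matrix and growth factor genes. All 3 arrays were above 0 for 60 genes (58.3%), against 26.6% of 11772 named genes. By limma 83 were called higher after obstruction and 25 under Eviprostat in sham rats, from the contrasts that chose them, and 0 lower (all probes: 7.16% higher and 4.46% lower after obstruction, 0.87% and 0.66% under Eviprostat); nothing is read from these counts. The sham/vehicle arrays, with the same RNA in both dyes, give the background: their mean ran from -0.88 to 0.51, with a median of -0.07.

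In a test of the obstruction/Eviprostat log ratio against 0, the mean comes from no array used in the thresholds. For the 19 genes with another probe, those arrays were among the 12 whose mean signal picked the probe. The spread of the test is pooled over all 12 arrays, its Cy3 is the same sham/vehicle RNA, and a dye effect is not removed from it. After normexp background correction and loess, 13 of the 103 genes (12.6%) were higher and 3 (2.91%) lower (limma with Benjamini-Hochberg adjustment over 36083 probes at 0.05), where 1.14% of all probes were higher and 1.09% lower. The median fitted log ratio was 0.14 for these genes and 0.02 for all probes. Of the 13 higher genes 9 were neuronal, and all 3 lower genes were secreted gland proteins. The first count moved with the arrays and the fit: 4 genes were called higher without obstruction/Eviprostat replicate 2 or without replicate 3, 27 with the slide as a block, and 21 with the spread taken from these arrays alone. The block takes the spread between slides out of the error of this mean, so calls made with it do not measure that spread. In the fit, obstruction/vehicle replicate 2 read well below its partners for some genes, such as Stmn2 (3.02, 0.73 and 2.93 in replicate order) and Cdo1 (3.30, 0.91 and 3.09). For others, such as Scgb1d4 (3.91, 4.31 and 4.57), it did not. That array is part of the pooled spread, and the test of the own ratio was not run with it alone left out. The other 3 groups chose the genes, so differences of the combined treatment from them are descriptions and are given without a p-value. With the scanner's own log ratio, which does not pull dim genes toward 0 as the offset of 50 does, 42 were called higher and 4 lower, and all 16 genes called by the fit kept their direction under the 10 alternatives run.

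**Figure D2:**
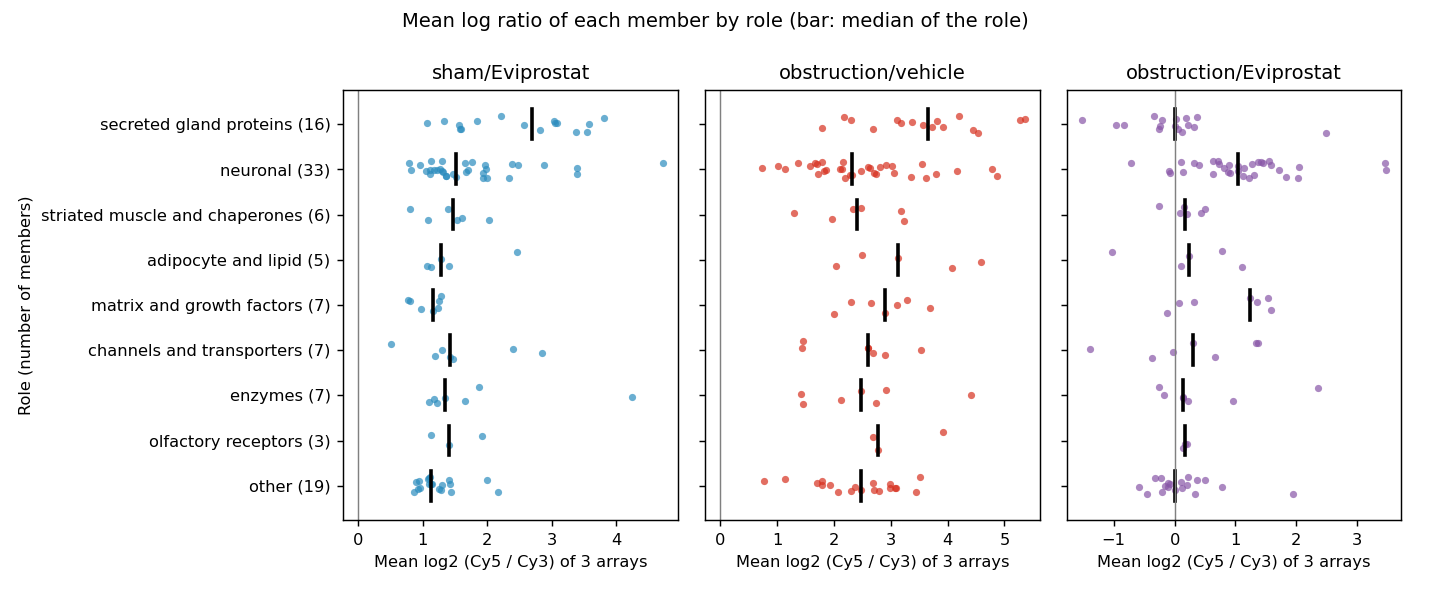
Mean log2 ratio of Cy5 to Cy3 over 3 arrays for each gene (points), by function, in the 3 groups other than sham/vehicle; black bars are medians of a set. Under obstruction with Eviprostat the median is 0.01 for secreted gland proteins, 1.04 for neuronal genes and 1.24 for matrix and growth factor genes.

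Secreted gland proteins were high in each of the 2 settings that chose them and near or below the sham/vehicle level when obstruction and Eviprostat were combined. For Scgb1d4, a secretoglobin of the prostatic steroid-binding protein family (on the array as Psbpc2, which is why its name was not left out), the log ratio was -0.33, 0.10 and 0.01 on the sham/vehicle arrays, 3.37, 3.65 and 3.63 on the sham/Eviprostat arrays, 4.26, 4.57 and 4.51 on the obstruction/vehicle arrays and -1.60, -1.48 and -1.50 on the obstruction/Eviprostat arrays. The groups did not overlap, and the obstruction/Eviprostat arrays were the lowest. Its fitted own ratio there was -1.53 ± 0.15 (SE; limma, adjusted p = 0.00025). Sbp, which encodes the spermine-binding protein of prostatic secretion, gave 0.04, 0.08 and 0.13 (sham/vehicle), 2.69, 2.91 and 2.84 (sham/Eviprostat), 3.12, 3.10 and 3.14 (obstruction/vehicle) and -0.91, -0.99 and -1.002 (obstruction/Eviprostat). It had the same order of groups, and its own ratio under both treatments was -0.95 ± 0.10 (SE; limma, adjusted p = 0.000466). Qsox1, a sulfhydryl oxidase abundant in seminal fluid, gave -0.17, -0.08 and -0.10 (sham/vehicle), 2.26, 2.71 and 2.72 (sham/Eviprostat), 4.03, 4.24 and 4.32 (obstruction/vehicle) and -0.85, -0.80 and -0.86 (obstruction/Eviprostat), with an own ratio of -0.83 ± 0.15 (SE; limma, adjusted p = 0.0123). With median centring in place of loess none of these 3 passed the test, at -1.10 for Scgb1d4, -0.62 for Sbp and -0.43 for Qsox1. Qsox1 also lost its call without any 1 of the obstruction/Eviprostat arrays.

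Slpi, the secretory leukocyte peptidase inhibitor, gave 0.21, -0.04 and -0.06 on the sham/vehicle arrays, 3.10, 3.10 and 2.92 on the sham/Eviprostat arrays, 5.19, 5.43 and 5.43 on the obstruction/vehicle arrays and 0.30, 0.46 and 0.37 on the obstruction/Eviprostat arrays. All 3 obstruction/Eviprostat arrays lay just above 0, far under both groups that chose the gene, and its own ratio was 0.39 ± 0.08 (SE; limma, adjusted p = 0.0288), a call lost without any 1 of these arrays and with median centring. Slpi-ps1, a related pseudogene that may share signal with Slpi, had obstruction/Eviprostat values of 0.29, 0.15 and -0.08 after 3.87, 3.87 and 4.03 under obstruction. Dnase2b, a lysosomal-type deoxyribonuclease, was the exception in this set. It gave 0.26, 0.21 and 0.22 (sham/vehicle), 3.11, 2.95 and 3.10 (sham/Eviprostat), 4.56, 4.62 and 4.42 (obstruction/vehicle) and 2.38, 2.63 and 2.45 (obstruction/Eviprostat), so all 4 groups were apart and the combined treatment stayed above sham/vehicle. Its own ratio was 2.15 ± 0.19 (SE; limma, adjusted p = 0.000117), and the call held in all 10 alternatives.

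Svs4, a seminal vesicle secretory protein listed on the array under an older name, Svp4, gave 0.38, 0.39 and 0.39 (sham/vehicle), 3.65, 2.80 and 2.78 (sham/Eviprostat), 5.91, 4.97 and 4.95 (obstruction/vehicle) and 0.08, 0.04 and 0.07 (obstruction/Eviprostat). Its Cy5 signal was saturated on 1 sham/vehicle, 2 sham/Eviprostat and 2 obstruction/vehicle arrays. The channels moved unequally. Cy5 read 421562, 306397 and 266698 intensity units on the sham/vehicle arrays and 2657720, 519930 and 474360 on the obstruction/vehicle arrays, while Cy3, the same sham/vehicle RNA throughout, read 324350, 233095 and 204095 and 44067, 16572 and 15359. From Cy5 alone Svs4 was not called in obstruction/Eviprostat against either group that chose it, though it was in the fit of the ratio (-5.01 against obstruction/vehicle).

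The 6 kallikrein genes lie in one row on chromosome 1, with 23.4 to 58.7 kb between neighbouring probes, and their probes are shown because close relatives can share signal on an array. Capitals mark the longest run that 2 probes have in common, 33 bases for Klk1c9 and Klk1c2 and 19 bases for Klk1 and Klk1c8. All other pairs of these 6 probes share runs of 5 to 7 bases. In Klk1 and Klk1c8 a further stretch, in small letters, also matches just before the 19 bases, past a mismatched base. Each of these probes may therefore report both genes as well. Probes are written 5′ to 3′ as in the array design, with rn3 positions at chr1:94660809-94660868 (plus strand) for Klk1c9, chr1:94550409-94550468 (minus strand) for Klk1c2, chr1:94706852-94706911 (plus strand) for Klk1, chr1:94609161-94609220 (plus) for Klk1c8, chr1:94526123-94527033 (minus) for Klk1c6 and chr1:94491525-94491680 (minus) for Klk1c10, the strand read from the order of the coordinates.
Klk1c9: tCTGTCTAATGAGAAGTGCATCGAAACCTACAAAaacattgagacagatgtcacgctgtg
Klk1c2: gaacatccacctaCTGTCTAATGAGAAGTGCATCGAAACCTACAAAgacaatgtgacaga
Klk1: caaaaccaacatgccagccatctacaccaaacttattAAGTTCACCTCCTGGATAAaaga
Klk1c8: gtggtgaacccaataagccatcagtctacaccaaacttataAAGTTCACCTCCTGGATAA
Klk1c6: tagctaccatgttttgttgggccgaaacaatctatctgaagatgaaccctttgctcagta
Klk1c10: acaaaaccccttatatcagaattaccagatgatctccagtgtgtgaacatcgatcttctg

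Klk1c9 and Klk1c2, which encode closely related kallikreins (the second is tonin), had much the same values, and with 33 shared bases each probe may report both genes. Klk1c9 gave 0.35, 0.28 and -0.04 (sham/vehicle), 3.92, 3.78 and 3.71 (sham/Eviprostat), 3.73, 3.90 and 3.81 (obstruction/vehicle) and -0.54, 0.03 and -0.28 (obstruction/Eviprostat), and Klk1c2 gave 0.16, 0.07 and 0.25 (sham/vehicle), 3.39, 3.38 and 3.35 (sham/Eviprostat), 3.46, 3.77 and 3.50 (obstruction/vehicle) and -0.53, -0.07 and -0.02 (obstruction/Eviprostat). In both, the values under the combined treatment lay around or below 0 and far from the groups that chose them. Klk1c8, the kallikrein whose probe shares 19 bases with that of Klk1, gave -0.86, -0.09 and -0.11 (sham/vehicle), 3.68, 3.64 and 3.42 (sham/Eviprostat), 4.00, 3.58 and 3.61 (obstruction/vehicle) and -0.63, -0.23 and 0.16 (obstruction/Eviprostat). Klk1, the true tissue kallikrein that releases kinins from kininogen, reached only 1.56 and 1.80 in these groups and was 0.02 ± 0.08 (SD, n = 3) on the obstruction/Eviprostat arrays. Klk1c6 and Klk1c10 had obstruction/Eviprostat means of 0.00 and 0.32. A second Klk1c10 probe, well above background on the 6 arrays, showed no such rise, with differences of -0.07 after obstruction and -0.24 under Eviprostat. The fitted difference from obstruction/vehicle, whose arrays chose the genes, was called for 5 of the 6 kallikreins, all lower, as it was for 5.9% of all probes. Klk1c10, at -0.58 ± 0.21 (SE), was not called in this fit but was with the slide as a block, and the call of Klk1c6 (-0.89 ± 0.23 SE) held in 6 of 13 alternatives. Of a wider list of 19 kallikrein and protease genes measured, 5 are among the genes described here. On the obstruction/Eviprostat arrays 2 of the 19 were higher than 0 and 0 lower, with a median of 0.03. Of all probes 1.14% were higher and 1.09% lower.

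The other secreted proteins were Doxl2, a diamine oxidase-like protein, Pla2g5, a secreted phospholipase, and Pnlip, a lipase. Their obstruction/vehicle means were 2.68, 3.37 and 3.19, and their obstruction/Eviprostat means were -0.35, 0.22 and 0.18. For all 16 secreted gland genes the 3 obstruction/vehicle arrays stood above the 3 obstruction/Eviprostat arrays, as they did for 92 of the 103 genes and for 25.8% of named genes. For 2 of the 16, Dnase2b and Slpi, the obstruction/Eviprostat arrays all stood above those of sham/vehicle, as they did for 14.6% of named genes.

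**Figure D3:**
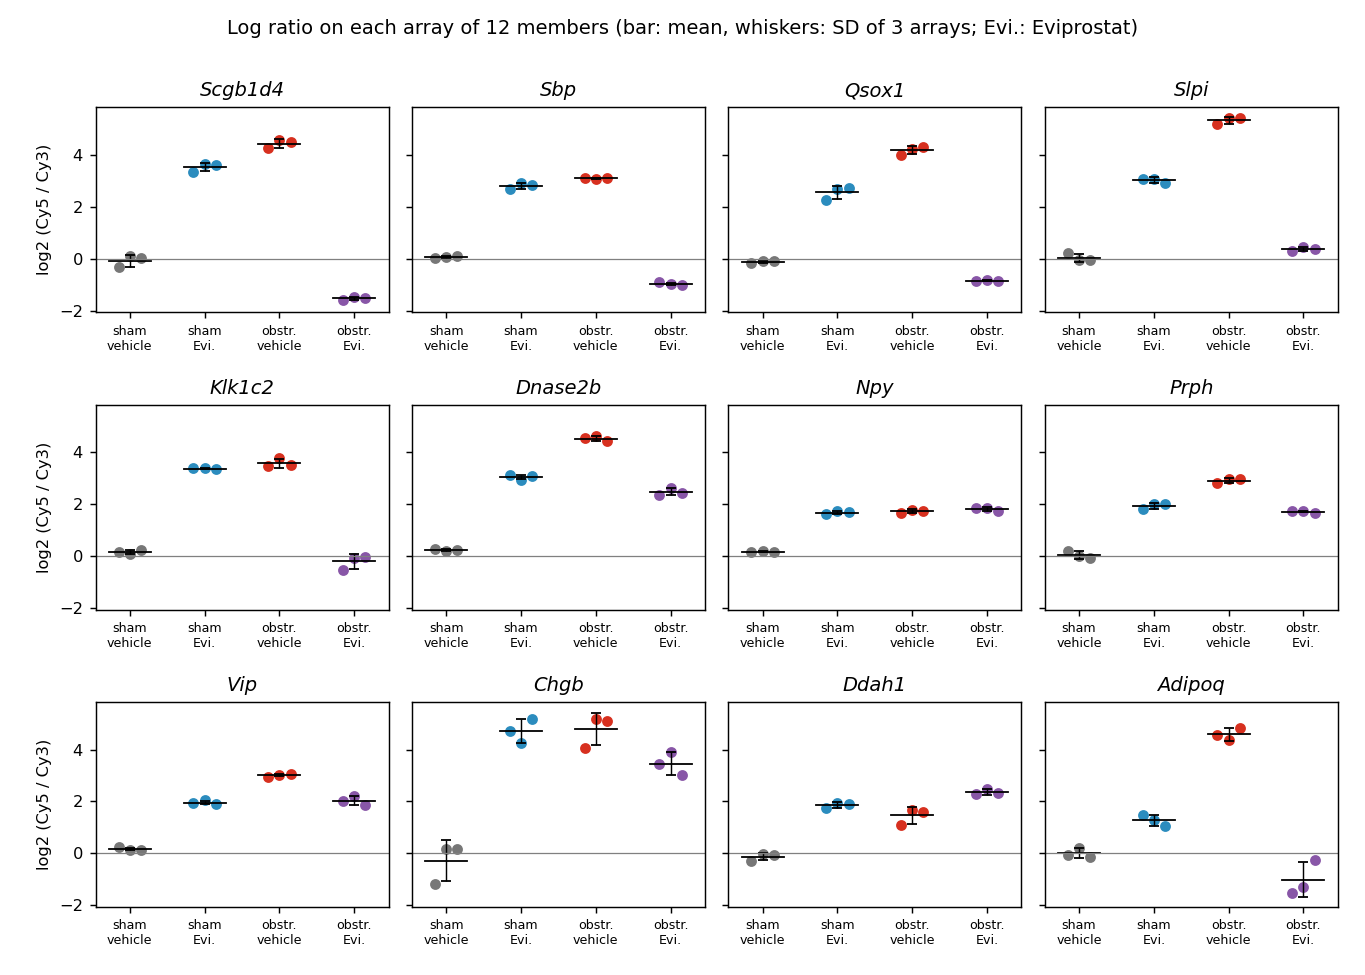
Log2 ratio of Cy5 to Cy3 on each array (points) for 12 genes in the 4 groups; bars are means and whiskers the SD of 3 arrays. Scgb1d4, Sbp and Qsox1 are lowest under obstruction with Eviprostat, while Npy, Prph, Vip and Chgb stay above 1 in all 3 groups other than sham/vehicle.

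The neuronal genes formed the largest set, 33 of 103, and most of them had log ratios above 0 when obstruction and Eviprostat were combined. Their median log ratio was 1.04 on the obstruction/Eviprostat arrays (range -0.72 to 3.48). All 3 of these arrays were above 0 for 28 of the 33, against 26.6% of named genes. In the fitted ratio 9 were higher than 0 and 0 lower, with a median of 0.43. Of all probes 1.14% were higher and 1.09% lower. The set was drawn up with the members known, so its counts carry no test. Npy, the peptide of sympathetic neurons, gave 0.16, 0.20 and 0.14 on the sham/vehicle arrays, 1.61, 1.73 and 1.69 on the sham/Eviprostat arrays, 1.65, 1.80 and 1.73 on the obstruction/vehicle arrays and 1.87, 1.87 and 1.74 on the obstruction/Eviprostat arrays. The obstruction/vehicle arrays overlapped both other groups, while all obstruction/Eviprostat arrays lay above those of sham/Eviprostat, and the own ratio under both treatments was 1.59 ± 0.10 (SE; limma, adjusted p = 5.71e-06). Prph, the intermediate filament peripherin, gave 0.19, 0.01 and -0.09 (sham/vehicle), 1.81, 1.99 and 2.01 (sham/Eviprostat), 2.81, 2.96 and 2.98 (obstruction/vehicle) and 1.74, 1.74 and 1.68 (obstruction/Eviprostat). The combined group lay under obstruction/vehicle and just under sham/Eviprostat, and its own ratio was 1.49 ± 0.12 (SE; limma, adjusted p = 5.38e-05). Vip, a peptide of cholinergic parasympathetic neurons, gave 0.23, 0.15 and 0.14 (sham/vehicle), 1.93, 2.04 and 1.91 (sham/Eviprostat), 2.96, 3.02 and 3.07 (obstruction/vehicle) and 2.01, 2.20 and 1.87 (obstruction/Eviprostat), again with obstruction/vehicle on top, and an own ratio of 1.45 ± 0.22 (SE; limma, adjusted p = 0.00464).

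Genes of axon growth and of the axonal cytoskeleton were the next in this set. Stmn2, a stathmin of growth cones, gave -0.04, 0.04 and 0.06 (sham/vehicle), 2.72, 2.91 and 4.53 (sham/Eviprostat), 3.55, 3.79 and 5.14 (obstruction/vehicle) and 3.12, 3.00 and 4.31 (obstruction/Eviprostat). The array of replicate 3 was the highest in each of the 3 groups other than sham/vehicle, and its own ratio was 1.57 ± 0.32 (SE; limma, adjusted p = 0.0269). Gap43, a growth cone protein, gave -0.06, 0.14 and 0.11 (sham/vehicle), 1.43, 1.61 and 1.51 (sham/Eviprostat), 3.09, 3.11 and 2.97 (obstruction/vehicle) and 1.99, 2.36 and 1.79 (obstruction/Eviprostat), and its own ratio was 1.16 ± 0.25 (SE; limma, adjusted p = 0.034). Uchl1, a ubiquitin hydrolase abundant in neurons, had an own ratio of 1.02 ± 0.20 (SE; limma, adjusted p = 0.0203) from obstruction/Eviprostat values of 1.34, 1.26 and 1.09. Nefm, the medium neurofilament chain, had 1.62, 1.54 and 1.18 there and an own ratio of 0.95 ± 0.20 (SE; limma, adjusted p = 0.0288). Nefl, the light chain, whose probe lies 59.7 kb from that of Nefm on chromosome 15, had 0.47, 0.54 and 0.22 and did not pass (0.17 ± 0.11 SE, limma adjusted p = 0.505). The 9 calls were completed by a pair chosen after their values were seen: Sncg, gamma-synuclein (1.02 ± 0.16 SE, limma adjusted p = 0.00684), and Ndn, necdin (0.79 ± 0.17 SE, limma adjusted p = 0.0305). Npy and Prph kept their call in all 10 alternatives. Without obstruction/Eviprostat replicate 2 or without replicate 3 the other 7 lost it, and without replicate 1 Stmn2, Uchl1 and Nefm did.

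Genes of transmitter handling and secretory granules were among the neuronal set as well. Chgb, the granule protein chromogranin B, gave -1.19, 0.17 and 0.16 (sham/vehicle), 4.72, 4.26 and 5.19 (sham/Eviprostat), 4.08, 5.17 and 5.12 (obstruction/vehicle) and 3.46, 3.90 and 3.03 (obstruction/Eviprostat). Its Cy3 signal cleared the background on no array, so the denominator was only bounded and the Cy5 level on the obstruction/Eviprostat arrays was at least 2.03-fold higher than the Cy3 level. The fitted own ratio was 1.16 ± 0.33 (SE; limma, adjusted p = 0.111, and 0.00818 with the slide as a block). Dbh, the noradrenaline-synthesizing hydroxylase, had 0.38, 0.28 and 0.27 on these arrays and 0.15 ± 0.08 (SE; limma, adjusted p = 0.398) in the fit. Slc18a3, the vesicular acetylcholine transporter, had 0.85, 0.78 and 1.04 on them and 0.40 ± 0.15 in the fit (SE; limma, adjusted p = 0.229). Fgf13, an intracellular regulator of sodium channels, went from 2.55, 2.29 and 3.77 under Eviprostat alone to 0.38, 1.25 and 1.11 with obstruction added; the first 3 values are from arrays that chose the gene. Dync1i1, Plppr4 and Scn9a cleared the background on none of the sham/vehicle arrays, and their Cy5 levels under the combined treatment were at least 1.27-fold, 1.18-fold and 1.17-fold higher than in sham/vehicle.

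A further 12 neuronal genes lay between 0.63 and 1.55 on the obstruction/Eviprostat arrays without passing the test (among them Ndrg4, Eno2, Nsg1, Rab6b, Stmn3, Syngr3, Lrrn3, Syp, Ptprn, Tmem35a and Sult4a1). They include the synaptic vesicle proteins synaptophysin (Syp) and synaptogyrin 3 (Syngr3) and the neuronal enolase Eno2. With the slide as a block 7 of these 12 passed (Ndrg4, Nsg1, Rab6b, Stmn3, Syngr3, Lrrn3 and Sult4a1, limma adjusted p from 0.00553 to 0.0334). That test leaves the spread between slides out of its error. The remaining 4, grouped here by their known roles in the brain, were near or below 0 under the combined treatment. Rims1, a synaptic active-zone protein, went from 3.61, 3.88 and 3.90 under obstruction to 0.46, -0.06 and 0.02, and Rph3a, a vesicle protein, from 2.47, 3.89 and 4.49 to -0.92, 0.21 and 0.48. Lrrc4, a synaptic adhesion protein, had 0.03, -0.17 and -0.13 after 2.27, 3.18 and 2.78. Pou3f3, a transcription factor, cleared the background on none of the sham/vehicle and obstruction/Eviprostat arrays, and under obstruction its Cy5 signal was at least 3.56-fold higher than in sham/vehicle. Rims1, Rph3a and Lrrc4 were, like Slc18a3, chosen after their values were seen.

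Against obstruction/vehicle, whose arrays chose the genes, 7 of 33 neuronal genes and 15 of 16 secreted gland genes were called lower under the combined treatment, where 5.9% of all probes were. The difference between the sets was not tested, since they were drawn up with the members known, and nothing is read from these counts. From the list of Schwann cell and nerve markers, 10 genes were measured and 6 are among the genes described (Prph, Uchl1, Nefm, Gap43, Dbh and Nefl). Among the other 4, the glial gene Sox10 had means of 0.19 (sham/Eviprostat), 0.44 (obstruction/vehicle) and 0.12 (obstruction/Eviprostat). Th, tyrosine hydroxylase of noradrenergic neurons, had means of 0.56 (sham/Eviprostat), 0.44 (obstruction/vehicle) and 0.24 (obstruction/Eviprostat). On the obstruction/Eviprostat arrays 4 of the 10 list genes were higher than 0 and 0 lower, all 4 from the genes described. Of all probes 1.14% were higher and 1.09% lower.

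Enzymes gave the single gene whose 3 obstruction/Eviprostat arrays all stood above every array of the other groups. Ddah1, which degrades the nitric oxide synthase inhibitor dimethylarginine, had -0.30, -0.02 and -0.08 on the sham/vehicle arrays, 1.74, 1.96 and 1.90 on the sham/Eviprostat arrays, 1.101, 1.67 and 1.61 on the obstruction/vehicle arrays and 2.29, 2.48 and 2.32 on the obstruction/Eviprostat arrays. The obstruction/Eviprostat arrays stood above all others, which in regard to obstruction/vehicle was so for this gene alone of the 103 and for 29.8% of named genes, and the own ratio was 2.18 ± 0.16 (SE; limma, adjusted p = 2.55e-05). It was the only one of the 103 genes called higher than in obstruction/vehicle (0.84 ± 0.22 SE), where 3.91% of all probes were. That call was lost without obstruction/vehicle replicate 1 and without obstruction/Eviprostat replicate 2 or 3. A second, dimmer Ddah1 probe showed less, with differences from sham/vehicle of 0.37 after obstruction and 0.51 under Eviprostat. Its log ratio under both was 0.73, from which no sham/vehicle mean was subtracted, so it cannot be ranked against these differences. Akr1b8, an aldo-keto reductase, had 1.01, 0.97 and 0.91 under both treatments and 2.94, 2.91 and 2.88 under obstruction, and its own ratio was 0.80 ± 0.13 (SE; limma, adjusted p = 0.00661); it was chosen after its values were seen. Cdo1, the cysteine dioxygenase that starts taurine synthesis, cleared the background on none of the sham/vehicle and obstruction/Eviprostat arrays. Its Cy5 signal reached at least 11.7-fold higher under obstruction and at least 3.50-fold higher under Eviprostat than in sham/vehicle. Hal, Entpd3, Adcy10 and Dusp13b had obstruction/Eviprostat means between -0.25 and 0.22.

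Striated muscle genes and chaperones were high in both groups that chose them and had means within 0.5 of 0 under the combined treatment. Myh6 and Myh7 encode the alpha and beta heavy chains of cardiac myosin, of which the beta chain is also that of slow skeletal fibres. Their neighbouring probes on rn3, at chr15:33060276-33060683 and chr15:33088720-33089345 (both minus strand by the order of the coordinates), share the 27 bases in capitals, and each may report the other gene.
Myh6: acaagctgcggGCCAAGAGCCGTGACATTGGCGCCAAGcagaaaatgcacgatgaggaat
Myh7: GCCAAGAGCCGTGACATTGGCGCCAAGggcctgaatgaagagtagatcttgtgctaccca

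Myh7 gave -0.35, -0.09 and -0.40 (sham/vehicle), 1.85, 1.73 and 1.25 (sham/Eviprostat), 3.17, 3.26 and 3.26 (obstruction/vehicle) and -0.62, -0.14 and -0.01 (obstruction/Eviprostat), and Myh6 gave -0.35, 0.14 and -0.15 (sham/vehicle), 1.39, 1.67 and 1.55 (sham/Eviprostat), 2.30, 2.75 and 2.40 (obstruction/vehicle) and -0.08, 0.47 and 0.08 (obstruction/Eviprostat). In both genes the obstruction/vehicle arrays were the highest and the combined group overlapped sham/vehicle. Tnnt1, the slow skeletal troponin T, had 3.05, 3.24 and 3.22 under obstruction and 0.99, -0.46 and 0.77 under both. Csrp3, a Z-disc protein, had 0.25, 0.00 and 0.03 there. Bag3, a co-chaperone, had 0.30, 0.18 and 0.12. The own ratios of Bag3 and of Cryab, a small heat shock protein of muscle that works with it, did not pass (0.36 and 0.48, limma adjusted p = 0.391 and 0.0548), but did with the slide as a block (limma adjusted p = 0.0255 and 0.0123). Of the 15 skeletal muscle list genes measured, 10 were called higher under Eviprostat in sham rats, but after obstruction 10 were lower and 1, Myh7, higher (limma; 0.87% of all probes were higher under Eviprostat, and after obstruction 4.46% were lower and 7.16% higher). The fast-fibre genes Myh4, Ckm and Pvalb had means of 1.44, 1.24 and 1.48 in sham/Eviprostat but -1.96, -1.72 and -3.32 in obstruction/vehicle.

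Adipocyte and lipid genes were led by Adipoq, the adipocyte hormone adiponectin, with -0.06, 0.21 and -0.15 (sham/vehicle), 1.48, 1.30 and 1.06 (sham/Eviprostat), 4.56, 4.37 and 4.85 (obstruction/vehicle) and -1.51, -1.31 and -0.24 (obstruction/Eviprostat). Its Cy5 signal cleared the background on no obstruction/Eviprostat array and was there at least 8.29-fold lower than in obstruction/vehicle. Fabp4, a fatty acid binding protein of adipocytes and macrophages, gave 0.38, -0.28 and -0.55 (sham/vehicle), 0.83, 1.11 and 1.46 (sham/Eviprostat), 3.77, 3.80 and 4.64 (obstruction/vehicle) and 0.13, 0.07 and 0.13 (obstruction/Eviprostat). Both returned to the range of sham/vehicle or below. Elovl6, which elongates fatty acids, had 0.13, 0.31 and 0.29 under both treatments, and B4galt6 and Degs2, of sphingolipid synthesis, had means of 0.78 and 1.11. None of the 5 passed the test of the own ratio, with adjusted p from 0.176 to 0.997 by limma; with the slide as a block Degs2 did (limma adjusted p = 0.0451). Of 15 adipocyte markers measured, 6 were called higher and 1 lower after obstruction, and 0 and 0 under Eviprostat in sham rats (limma, with the shares of all probes as for the muscle list). Their summed Cy5 signal ran from 6803 to 7576 intensity units in sham/vehicle, 8541 to 9638 in sham/Eviprostat, 69000 to 74790 in obstruction/vehicle and 8494 to 9826 in obstruction/Eviprostat, and their part in these results was not tested.

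Of the 7 matrix and growth factor genes, 4 had a mean of 1 or more under the combined treatment and 0 passed the test of the own ratio without the slide as a block. Postn, the matricellular protein periostin, gave 0.11, -0.38 and -0.40 (sham/vehicle), 0.85, 1.17 and 1.73 (sham/Eviprostat), 3.44, 4.28 and 3.38 (obstruction/vehicle) and 0.89, 2.27 and 1.43 (obstruction/Eviprostat). The combined group lay between sham/vehicle and obstruction/vehicle. Thbs4, a thrombospondin of matrix, had 1.35, 1.18 and 1.51 and Pcsk6, a proprotein convertase, 1.34, 1.67 and 1.73, both above 0 on all 3 arrays. In the fitted ratio these 3 did not pass (0.43 ± 0.24 SE, limma adjusted p = 0.424 for Postn, adjusted p = 0.108 for Thbs4 and 0.14 for Pcsk6), and Postn passed only with the scanner's ratio, at 1.53. With the slide as a block Thbs4 and Pcsk6 passed (limma adjusted p = 0.0215 and 0.0224). Pdgfrl, a receptor-like protein, had 0.58, 0.84 and 2.31. P4ha1, a collagen prolyl hydroxylase subunit, Chst15, a chondroitin sulfotransferase, and Areg were near 0, with means of 0.07, -0.13 and 0.32.

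Among channels and transporters, Trpv6, the epithelial calcium channel, gave -0.15, 0.58 and -0.51 (sham/vehicle), 2.62, 2.96 and 2.98 (sham/Eviprostat), 2.54, 3.08 and 3.10 (obstruction/vehicle) and 0.22, 1.03 and 0.73 (obstruction/Eviprostat). Its combined group overlapped sham/vehicle and lay under both groups that chose the gene. Slc23a1, a vitamin C transporter, had -1.12, -1.52 and -1.51 under both treatments, not well above background, and was at least 1.77-fold lower than in obstruction/vehicle. Slc16a1, a lactate transporter, had 0.55, 2.06 and 1.49. Slc7a3, a cationic amino acid transporter, was uneven between arrays, with 1.75, 2.26 and 0.39 under obstruction and 2.73, 0.58 and 0.69 under both. Kcne4, Slc30a10 and Gabrp had means of 0.29, -0.03 and -0.37. The 3 olfactory receptor genes, Or4l1, Or2n1j and Or1e16d, had means from 2.70 to 3.92 under obstruction and from 0.14 to 0.20 under both.

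The 19 genes of other functions were Ifitm6, Scin, Stfa3, Fkbp1b, Rfx3, Fkbp6, Tbx18, Mtmr1, Tmem45b, Ubxn11, Lrrk2, Fcrl2, Lonrf1, Spata13, Chtf18, Akap14, Nostrin, Gsdme and Ppp1r17. Their obstruction/Eviprostat means ran from -0.59 to 1.95, with a median of 0.01, and none passed the test of the own ratio in either direction without the slide as a block. The highest was Fkbp1b, which binds calcium release channels, with 1.63, 2.08 and 2.14, and it passed with the block (limma adjusted p = 0.0374); it was chosen after its values were seen. Gsdme, a pore-forming gasdermin, was typical of the rest, with 3.40, 3.58 and 3.37 under obstruction and 0.30, 0.24 and 0.09 under both, and it too was picked afterwards. Ppp1r17 had -0.13, -0.31 and -0.18. Ifitm6, an interferon-induced membrane protein, had higher values under Eviprostat (2.28, 1.96 and 2.27) than under obstruction (1.88, 1.99 and 1.52) by their means and was lower under both, at 0.42, 0.37 and 0.31.

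Set against the groups that chose the genes, the combined treatment was lower for many of them. Against obstruction/vehicle, 59 of 103 (57.3%) were lower and 1 higher, where 5.9% of all probes were lower. The genes had been picked for high values on the obstruction/vehicle arrays, which favours a lower value elsewhere, so the count is a description. It was 34 without obstruction/vehicle replicate 1, 36 without its replicate 3, 32 without obstruction/Eviprostat replicate 2 and also 32 without its replicate 3, and 26 on slides 2 and 3 alone. Against sham/Eviprostat 16 (15.5%) were lower and 0 higher (background 1.31% and 0.97% by limma), of which 10 were secreted gland proteins. With the slide as a block 33 were lower and 1 higher. For 74 of 103 genes the 3 sham/Eviprostat arrays all stood above the 3 obstruction/Eviprostat arrays, as they did for 20.2% of named genes. For 88 of the 103 the sham/Eviprostat arrays all stood above sham/vehicle and the obstruction/vehicle arrays all above obstruction/Eviprostat, against 8.94% of named genes; the rule favours both, and nothing is read from it.

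Against sham/vehicle, 4 of 103 genes were higher under the combined treatment, Ddah1 (2.34 ± 0.22 SE), Dnase2b (1.94 ± 0.27 SE), Npy (1.47 ± 0.14 SE) and Prph (1.44 ± 0.17 SE). Scgb1d4 (-1.41 ± 0.21 SE) and Sbp (-1.05 ± 0.14 SE) were lower. Of all probes 0.175% were higher and 0.119% lower, and the sham/vehicle arrays, low by the choice of the genes, favour a higher value, so these calls by limma are descriptions. With the slide as a block 11 were higher and 3 lower; without sham/vehicle replicate 2 or 3, or without obstruction/Eviprostat replicate 2 or 3, none was lower and 3 were higher, and without obstruction/Eviprostat replicate 1 a single gene was lower. For 43 genes the 3 obstruction/Eviprostat arrays all stood above the 3 sham/vehicle arrays, against 14.6% of named genes, and 27 of the 43 were neuronal.

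The Cy3 channel moved with some of these genes although it carried sham/vehicle RNA on every array. After removing the median difference between arrays (0.89 log2 units between obstruction/vehicle and sham/vehicle arrays over 11772 named genes), Cy3 was at least 1 log2 unit higher on the obstruction/vehicle arrays than on the sham/vehicle arrays for 10 of the 103 genes (9.71%), against 0.688% of named genes. On the sham/Eviprostat arrays it was so for 4 genes (3.88%), against 0.144%. On the obstruction/Eviprostat arrays, whose own ratio was tested, it was so for 2 genes (1.94%), against 0.187%. These were Npy (1.09) and Scn9a (2.69), of which the fit used 2 of these arrays for Scn9a. For Slpi, Cy3 read 1280, 1309 and 1305 intensity units on the sham/vehicle arrays and 12130, 8234 and 8182 on the obstruction/vehicle arrays, while Cy5 read 1476, 1271 and 1255 and 444008, 356099 and 352661. For Trpv6 the Cy3 difference was 4.95 log2 units, for Dnase2b 2.70, for Klk1c9 1.98, for Npy 1.83 and for Svs4 -4.36. A rise in Cy3 lowers the ratio, so for all of these but Svs4 the ratio is below the change of Cy5 alone. A fall in Cy3 raises it. On the sham/Eviprostat arrays Cy5 was higher than on sham/vehicle arrays by only 0.66 for Postn and 0.45 for Pdgfrl, with Cy3 differences of -0.81 and -0.68. For Svs4 the Cy5 difference was 0.33 there and 0.60 on the obstruction/vehicle arrays. A ratio difference of 1 therefore does not mean that Cy5 rose 2-fold for every gene. What moved this channel was not tested.

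**Figure D4:**
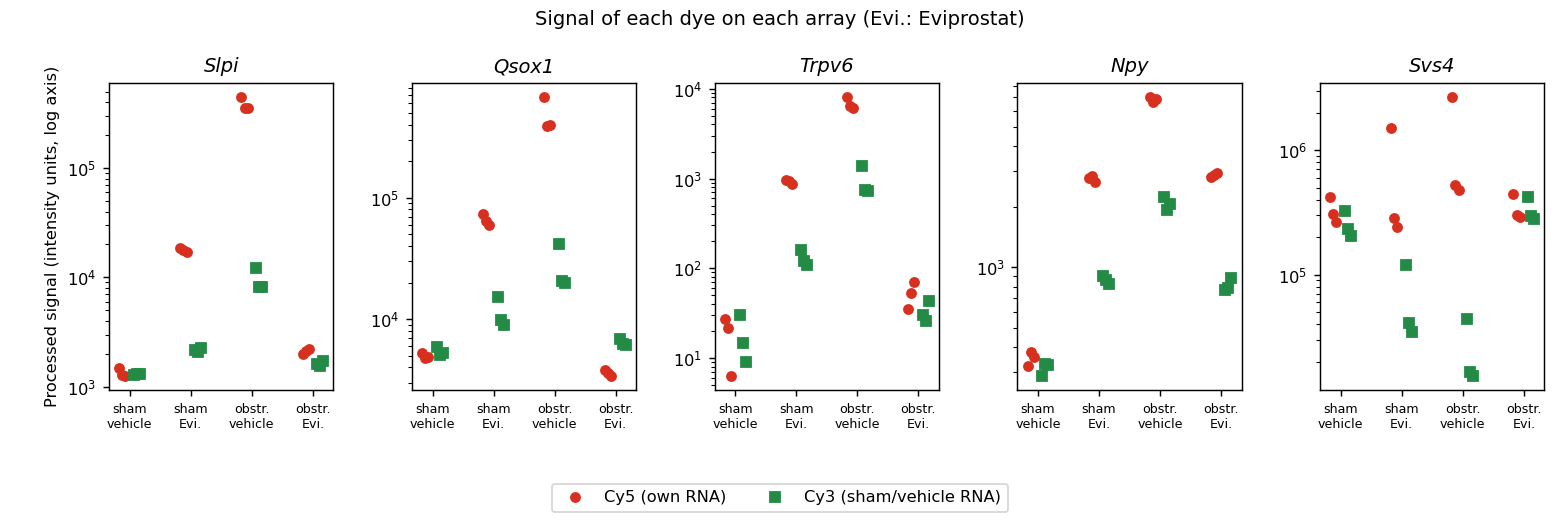
Processed signal in intensity units (log axis) of Cy5, the group's own RNA (circles), and Cy3, sham/vehicle RNA (squares), on each array for 5 genes in the 4 groups. For Slpi, Qsox1, Trpv6 and Npy both dyes are higher on the sham/Eviprostat and obstruction/vehicle arrays, and for Svs4 Cy3 is lower there. For Npy, Trpv6 and Slpi the mean log2 signals of both dyes are higher on the obstruction/Eviprostat than on the sham/vehicle arrays, also after removing the median difference between arrays. The Cy3 differences are then 1.09, 0.75 and 0.04.

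Most markers of the seminal vesicle were high after obstruction and under Eviprostat in sham rats, as the secreted gland genes were. Of 8 measured, 7 were called higher after obstruction and the same number under Eviprostat in sham rats (limma, with the shares of all probes given above), with median fitted differences of 5.87 and 5.03. Only Svs4 of these is among the genes described, and nothing is read from the count. Svs5, Svs6 and Svs7, which encode seminal vesicle secretory proteins, had means of 7.43, 6.56 and 5.87 in sham/Eviprostat, 8.32, 6.99 and 6.03 in obstruction/vehicle and 3.04, 3.33 and 2.00 in obstruction/Eviprostat. Semg1 (on the array as Svs2) was the exception, with means from -0.52 to 0.26. In the own ratio of the obstruction/Eviprostat arrays 3 of the 8 were called higher and 0 lower (limma). Of all probes 1.14% were higher and 1.09% lower. The median fitted own ratio was 0.33 for these markers and 0.02 for the secreted gland genes. The summed Cy5 signal of the 8 genes ran from 404500 to 570600 intensity units on sham/vehicle arrays, 884400 to 2466000 on sham/Eviprostat, 2405000 to 6689000 on obstruction/vehicle and 504800 to 639200 on obstruction/Eviprostat; 6 further listed markers were not measured. Their part in the results was not tested.

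The nerve markers summed to 2219 to 2796 intensity units on sham/vehicle arrays, 7628 to 8175 on sham/Eviprostat, 23700 to 24800 on obstruction/vehicle and 5864 to 7203 on obstruction/Eviprostat. Those of skeletal muscle summed to 104300 to 110200, 289400 to 364700, 77780 to 78440 and 76810 to 85230 in the same order, highest on the sham/Eviprostat arrays. Of 17 listed markers of prostate epithelium 13 were measured, 3 of them among the genes described. After obstruction 3 were called higher and 5 lower (limma), where 7.16% and 4.46% of all probes were. Under Eviprostat in sham rats 3 were called higher and 0 lower, against 0.87% and 0.66%. The 13 markers summed to 600900 to 823700 in sham/vehicle, 637900 to 1194000 in sham/Eviprostat, 705000 to 919700 in obstruction/vehicle and 799400 to 1082000 in obstruction/Eviprostat.

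Markers of macrophages, neutrophils and urothelium had their highest summed signal after obstruction. Of 12 macrophage markers measured, 12 were called higher after obstruction and 0 under Eviprostat in sham rats (limma, where 7.16% and 0.87% of all probes were). Their summed Cy5 ran from 21330 to 22580 intensity units in sham/vehicle, 22090 to 27140 in sham/Eviprostat, 189300 to 224100 in obstruction/vehicle and 33550 to 35870 in obstruction/Eviprostat. Of 9 neutrophil markers 7 were called higher after obstruction, with sums of 763.5 to 985.2, 753.2 to 1036, 120600 to 142500 and 1007 to 1333 in the same order. Of 7 urothelial markers 4 were, with sums of 5736 to 6970, 8057 to 9861, 73430 to 82060 and 9265 to 10160. None of the genes described is on these 3 lists. The part of nerve, muscle, epithelium, urothelium or immune cells in the results was not tested.

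**Figure D5:**
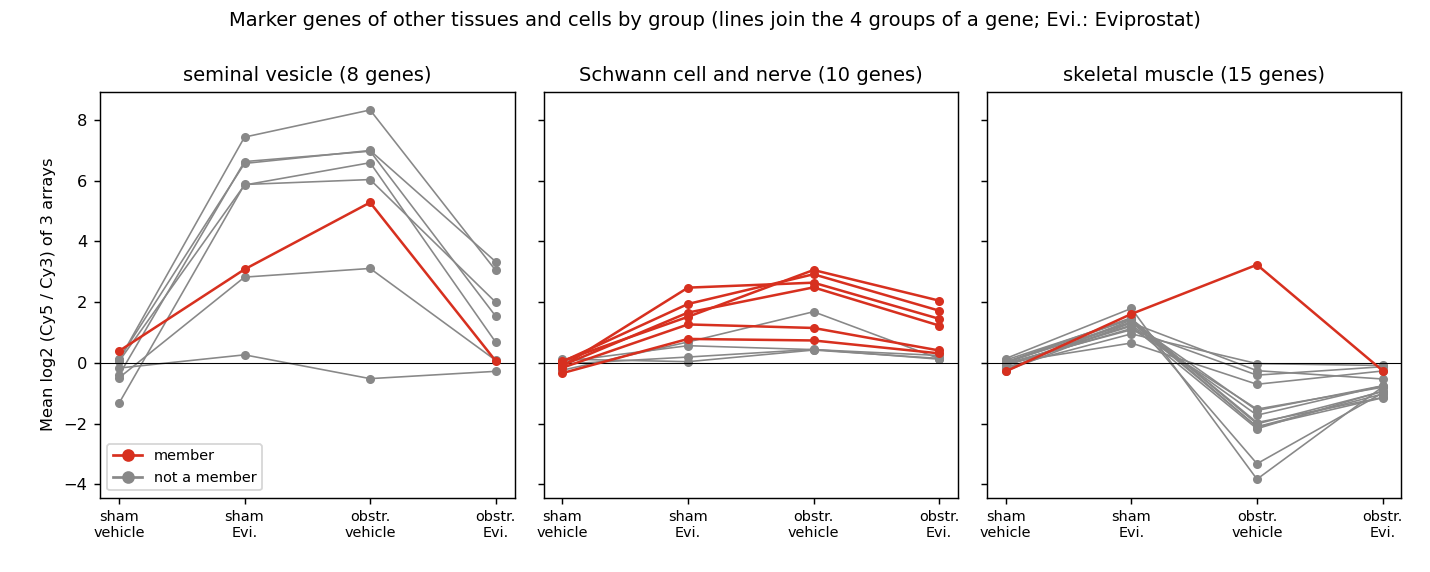
Mean log2 ratio of Cy5 to Cy3 over 3 arrays for each gene of 3 marker lists in the 4 groups; red lines are genes described here, grey lines the others, and lines only join the values of a gene. Seminal vesicle genes are high in the middle groups except Semg1, and fast skeletal muscle genes are above 0 under Eviprostat in sham rats and below 0 under obstruction.

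Other probes bear on how far a value belongs to its gene. For 12 of the 103 genes a second probe was well above background on the 6 arrays that chose the genes, and for 4 of them, Slpi, Qsox1 and Ndn included, it, or 1 of a pair of such probes for Ndn, met both differences of 1. For the other 8 it did not, among them Ddah1, Klk1c10, Hal, Tbx18, Chst15 and Lrrc4. On the fitted ratios in place of the scanner's, 37 of the 103 genes met both thresholds and no other gene did.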

How the data were processed

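RNA of pooled prostate tissue was labelled and hybridised to 3 arrays a group, per the labels' protocols, and the labels call these biological replicates. Per the file headers, the authors' scanner software (Feature Extraction version 9.5.1.1, Agilent) gave spot and background intensity, a processed intensity that it had background-subtracted and dye-normalized, and a log10 ratio of Cy5 to Cy3, all as deposited. The genes were chosen from log2 ratios of the deposited processed signals; the brightest probe of a name is the one with the highest mean of Cy5 plus Cy3 over the 12 arrays. The genes and all gene lists were chosen with earlier results of these data known. Current symbols come from a RefSeq table (81 genes by accession, 18 by symbol, 4 by synonym), which renamed Svp4 to Svs4 and Psbpc2 to Scgb1d4; both were kept, since the rule reads the array's names.

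For tests, intensities were corrected with normexp (offset 50), normalized by loess within arrays and fitted with 1 mean per group in limma 3.58.1 (R 4.3.3; 8 residual degrees of freedom), over 36083 of 41012 probes with Cy5 well above background on at least 3 of 12 arrays. Benjamini-Hochberg adjusted p-values were read at 0.05. The fit was tested on simulated data. Bounds ("at least N-fold") set the mean of the measured group against, per array, the higher of the dim probe's signal and the lowest signal well above background. Each slide held 1 array of each group, in a fixed position that cannot be told apart from the group. Arrays with the same number shared a slide and deviated together. Their correlation r ran from 0.16 to 0.78 over 18 pairs, against a median of -0.42 over 36 other pairs. The numbers therefore pair the arrays, and blocked values stand beside an own ratio or count that they change. An own ratio is the mean of 1 group, not a difference within slides. The block takes the spread between slides out of its error, and its blocked p-value does not measure that spread. Named in full are the genes with the highest smaller difference, those highest and lowest under the combined treatment, members of the marker lists and those nearest the threshold; all other genes given by name were chosen after their values were seen. Some genes counted here are not reported by name.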

Additional observations from a re-analysis of the deposited data

Results flagged for a closer look

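Eviprostat went with opposite shifts in sham and in obstructed rats for 88 of the 103 genes: all 3 sham/Eviprostat arrays stood above all 3 sham/vehicle arrays, and all 3 obstruction/Eviprostat arrays stood below all 3 obstruction/vehicle arrays. The genes were chosen for the first of these shifts and for high values under obstruction, so nothing is read from the count. The same pattern held for 8.94% of named genes, and the difference between the shifts was not tested.

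The Cy3 channel, which carried sham/vehicle RNA on every array and is not itself a measure of the groups, was at least 1 log2 unit higher on the obstruction/vehicle arrays than on the sham/vehicle arrays for 10 of the 103 genes, after the median gene's difference was removed. On the obstruction/Eviprostat arrays this was so for 2 genes. What moved the channel was not tested.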

How the results depend on the processing

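With the scanner's ratio in place of normexp and loess, 42 genes had an own ratio called higher than 0 under obstruction with Eviprostat (13 in the fit reported), 31 were higher than in sham/vehicle (4), 89 lower than in obstruction/vehicle (59), and 60 lower and 1 higher than in sham/Eviprostat (16 and 0). With median centring 0 own ratios were called lower (3; 18 were higher), 2 genes were higher and 0 lower than in sham/vehicle, and 0 were higher than in obstruction/vehicle. With the replicate block these were 27 own ratios higher, 11 genes higher than in sham/vehicle, and 33 lower and 1 higher than in sham/Eviprostat; it moved no other count by over 1.5 times. With only the groups compared in the fit, 21 own ratios were higher, 11 genes were higher than in sham/vehicle, 28 lower and 0 higher than in obstruction/vehicle, and 40 lower than in sham/Eviprostat. Cy5 alone gave 15 higher than in sham/vehicle and 30 lower than in sham/Eviprostat, and slides 2 and 3 gave 26 lower than in obstruction/vehicle. The cause of these shifts was not tested. Leaving out 1 array at a time gave 4 to 9 own ratios higher, 0 to 2 genes lower than in sham/vehicle, and 0 to 1 higher and 32 to 86 lower than in obstruction/vehicle, the most without obstruction/vehicle replicate 2. The rule itself found 195 genes with placeholder names included, 37 on normexp and loess ratios, 42 with both differences at least 1.5 and 169 with both at least 0.8; leaving out 1 array gave 96 to 123. No own ratio called in the fit reported changed direction, but uncalled ones did under at least 1 alternative (Areg, Cdo1, Fabp4, Klk1, Klk1c2, Myh7, Pou3f3, Ppp1r17 and Trpv6 among the genes named by rule). Of the calls, 4 of 16 own ratios, 0 of 6 against sham/vehicle, 23 of 60 against obstruction/vehicle and 10 of 16 against sham/Eviprostat held under every alternative run. Among alternatives added after seeing the data, the 53 genes with both channels well above background on all 3 obstruction/Eviprostat arrays held 11 of the higher and 3 of the lower own ratios, and 101 genes remained with the prefixes applied to current symbols. Dim signal limits the ratio of 13 genes, whose Cy3 cleared the background on none of the obstruction/Eviprostat arrays.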
